A study of Homo sapiens with 4 samples.

Results

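YAP, TAZ, TEAD and VGLL factors were followed as 8 genes, taken by name from the 58735 genes of the deposited tables: YAP1, WWTR1 (which encodes TAZ), TEAD1, TEAD2, TEAD3, TEAD4, VGLL1 and VGLL4. They were measured by poly(A) RNA sequencing in HCT116, an established line of human colorectal carcinoma, 48 h after transfection with a control siRNA (2 libraries, siControl) or with siRNA targeting KIF26B, a kinesin family gene (2 libraries, siKIF26B). The labels name no other treatment. The labels do not say which siRNA against KIF26B entered each library, numbers in the names of the deposited columns are not explained, and separate cultures are not stated for the replicates, so that p-values describe only the spread between these libraries. The comparison asks how the transcripts of these factors stood in cells given siRNA against KIF26B, in a study concerned with Hippo-YAP signaling.

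YAP and TAZ are paralogous transcriptional coactivators that have no DNA-binding domain of their own. In the Hippo cascade MST1/2 act upstream of LATS1/2, the kinases that phosphorylate YAP and TAZ and hold them in the cytoplasm. When these kinases are inactive, YAP and TAZ enter the nucleus and bind TEAD proteins, which supply the DNA-binding domain. VGLL proteins bind the TEAD proteins at a surface that overlaps with that used by YAP, and VGLL4 in particular opposes YAP. In the intestine, YAP and TAZ are known for their part in regeneration after injury and in colorectal tumors. Their activity is set largely by phosphorylation and localization of the proteins, which RNA sequencing does not measure.

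TEAD proteins recognize the motif GGAATG, read as CATTCC on the opposite strand. The 250 bases before each start site were searched for it on both strands, in the RefSeq promoters of build GRCh38.p14. Of the 8 genes, 6 had an entry, with 12 start sites in all, and TEAD1 and TEAD4 had none. The motif stood before 2 of the 12 start sites (16.7%), against 11.9% of 35116 start sites in the table. With so few start sites, these shares are near each other. Both matches are shown with the motif in capitals, as a description only.
YAP1, plus strand, chr11:102110273-102110302: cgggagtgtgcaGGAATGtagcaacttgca
VGLL1, plus strand, chrX:136532046-136532075: taccatgttcctCATTCCtgcaggtgccca
The match lay 162 bases before the start site of YAP1 and 157 bases before that of VGLL1. No match was found in these windows for WWTR1, TEAD2, TEAD3 or VGLL4, nor for VGLL2 and VGLL3. A match is a run of letters and was not tested for binding.

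Reads on genes recovered from the deposited values summed to 19608686 to 25384574 per library. These sums exceeded the depth by which FPKM was scaled, also inferred from the values (18068934 to 24673739). The gap was widest in siKIF26B replicate 2, with 19608686 reads against 18068934, and its cause was not tested. Values are given as FPKM, fragments scaled to exon length and sequencing depth, so that levels of different genes can be set side by side. For the tested factor genes that length was near all annotated exons combined. Which isoforms were expressed is not accounted for, which limits the ranking and shares of different genes. KIF26B itself stood at 0.110 and 0.205 FPKM in the siControl libraries and at 0.140 and 0.0307 FPKM in the siKIF26B libraries, from 31, 73, 43 and 8 reads. Hence the targeted gene was below both controls only in the library labelled siKIF26B replicate 2 and lay between them in that labelled replicate 1, with a log2 difference of −0.09 between the groups (adjusted p = 0.775, limma without the filter on low values). That scale compresses differences of genes so far below 1 FPKM. By limma-voom on recovered reads the log2 difference was −1.13 (standard error 0.67, adjusted p = 0.574), and the read rate relative to both controls was 0.857 in replicate 1 (95% interval 0.601 to 1.22) and 0.189 in replicate 2 (0.0919 to 0.387). Mitochondrial transcripts took 6.68% and 6.69% of reads in the controls and 9.38% and 7.53% in the siKIF26B libraries, and their part in the results was not tested. Of 10 colorectal epithelial markers, 6 were at 1 FPKM or more in every library, among them EPCAM, KRT8, KRT18 and KRT19, whereas KRT20, VIL1 and CEACAM5 stayed below 1 FPKM in every library and CDX1 was at 0. Of 8 markers of fibroblasts, endothelial and blood cells, only COL1A1 exceeded 1 FPKM (4.74 to 8.69 FPKM). The summed level of these 8 markers was 7.38 to 7.54 FPKM in the controls and 5.16 to 8.89 FPKM in the siKIF26B libraries.

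Among siControl libraries, the factor genes formed an order in which no neighbours overlapped between libraries. TEAD1 was highest with a mean of 24.4 FPKM, followed by YAP1 with 20.0, WWTR1 with 13.6, TEAD3 with 12.3, TEAD4 with 9.89, TEAD2 with 7.29 and VGLL4 with 4.30 FPKM, and VGLL1 was at 0. YAP1 lay above 84.9% of the 14523 genes that passed the filter of a mean of at least 1 FPKM, and VGLL4 above 41.1% to 42.3% of them. In siKIF26B libraries, YAP1 led with a mean of 27.2 FPKM and TEAD1 followed with 19.8 FPKM. WWTR1 ranked below TEAD3, TEAD4 and TEAD2 there, and the ranges of TEAD4, TEAD2 and WWTR1 overlapped their neighbours, so that these 3 could not be ordered beyond their spread.

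**Figure D1:**
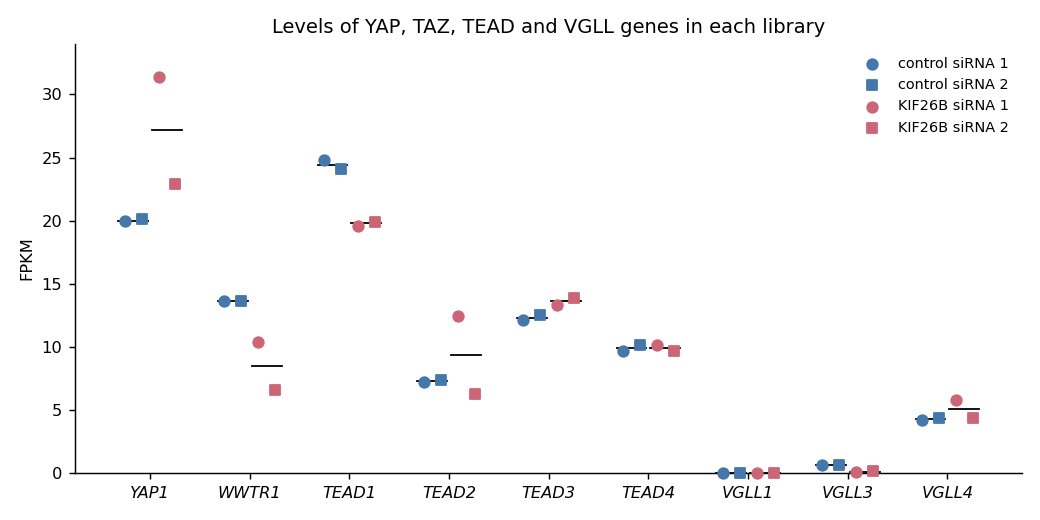
FPKM (vertical axis) of the 8 factor genes and VGLL3 in each library. Circles are replicate 1 and squares replicate 2 of control siRNA (blue) and KIF26B siRNA (red), and black lines are group means of 2 libraries. The control points nearly coincide for each gene, the KIF26B siRNA points of YAP1, WWTR1 and TEAD2 are spread apart, and VGLL1 is at 0 in all 4 libraries.

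Of the 8 genes, 7 passed the filter and were tested, and VGLL1 was not. None of the 7 was called. By limma, 0 of the 14523 genes tested (0%) had an adjusted p below 0.05, while 2385 had an unadjusted p below 0.05, and limma-voom on the recovered reads also called 0 after adjustment, with 2599 below 0.05 before it. At an unadjusted p below 0.05, 8.68% of all genes tested were lower and 7.74% higher in siKIF26B libraries, and 0 of the 7 factor genes were in either class by this fit. Both WWTR1 and TEAD1 lay near that threshold, with unadjusted p of 0.0504 and 0.0543 by limma, and passed it by limma-voom with 0.0292 and 0.0268. With the replicate number as a block, WWTR1 passed it too (unadjusted p = 0.0404, limma). With a log2 fold change beyond 1 required as well, these shares were 0.606% and 0.813%, again with 0 of 7. The methods of the study set the same cut on results of DESeq2, whereas here it was set on log2(FPKM + 1), another scale. Groups that did not overlap were seen for WWTR1 and TEAD1, which were lower in both siKIF26B libraries than in both controls, and for YAP1 and TEAD3, which were higher. These are 2 of 7 in each direction, beside 27.8% of all genes tested that were lower and 24.9% that were higher without overlap, so the counts are near the background. In sequenced bulk RNA, fewer cells with a transcript and less transcript per cell cannot be told apart.

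Coactivators came first. YAP1 (ENSG00000137693, chromosome 11 of GRCh37, 101981178 to 102104155, plus strand) stood at 20.0 and 20.1 FPKM in the controls and at 31.4 and 22.9 FPKM in the siKIF26B libraries, from 2466, 3124, 4227 and 2604 reads. Both siKIF26B libraries were above both controls, but replicate 2 less so, and the group means were 20.0 ± 0.111 and 27.2 ± 6.04 FPKM (SD, n = 2). The difference of the groups was 0.40 on the log2(FPKM + 1) scale (standard error 0.19, 95% interval −0.12 to 0.93, adjusted p = 0.378, limma). Taken alone, replicate 1 was 0.62 above the control mean, a difference equalled or exceeded by 5.26% of the genes tested. Replicate 2 was 0.18 above it, equalled or exceeded by 32.9%. YAP1 shares 628 exon bases (9.95%) with an antisense noncoding gene that read 0 FPKM in every library. It shares 11 more (0.174%) with another that read 1.54 to 4.04 FPKM.

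WWTR1 (ENSG00000018408, chromosome 3 of GRCh37, 149235022 to 149454501, minus strand) stood at 13.6 FPKM in each control and at 10.4 and 6.55 FPKM in the siKIF26B libraries, from 2242, 2820, 1868 and 996 reads. Here, too, the groups did not overlap, and the library furthest from the controls was replicate 2, whereas for YAP1 it was replicate 1. The group means were 13.6 ± 0.0064 and 8.47 ± 2.72 FPKM (SD, n = 2). WWTR1 shares 756 exon bases (9.05%) with the antisense gene WWTR1-AS1, which read at most 0.255 FPKM. The log2 difference was −0.65 (standard error 0.24, 95% interval −1.31 to 0.00, adjusted p = 0.304, limma), with an unadjusted p of 0.0504 from limma. In replicate 1 the difference from the control mean was −0.36, as low or lower in 17.9% of the genes tested. In replicate 2 it was −0.95, as low or lower in 1.92% of them. Without siKIF26B replicate 1, the adjusted p of limma was 0.0463, in a fit where the spread comes from the controls alone and which called 2507 genes in all.

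Counting error was small beside these differences. Relative to the rate of both controls together, the read rate of YAP1 was 1.57 in replicate 1 (95% interval 1.51 to 1.63) and 1.14 in replicate 2 (1.09 to 1.20). For WWTR1 the rates were 0.765 (0.726 to 0.807) and 0.482 (0.451 to 0.516). In both genes the intervals of the siKIF26B libraries lay apart, so the libraries differed from each other by more than counting error. These intervals cover counting error only, and PCR copies of a molecule are not independent of each other.

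Because the coactivators lay on opposite sides of the controls, their balance differed more than either level. This follows from the levels themselves and is no further evidence of a difference. YAP1 made up 59.5% and 59.7% of the summed FPKM of YAP1 and WWTR1 in the controls, and 75.1% and 77.7% in the siKIF26B libraries. The ratio of YAP1 to WWTR1 was 1.47 and 1.48 in the controls against 3.02 and 3.49. On the log2 scale the ratio was 0.56 and 0.57 in the controls and 1.60 and 1.80 in the siKIF26B libraries, a difference of means of 1.14. With 2 libraries against 2, an exact two-sided permutation test cannot give a p below 0.333, and none is reported. The summed level of both genes followed the library rather than the label, with 33.5 and 33.7 FPKM in the controls, 41.8 FPKM in replicate 1 and 29.4 FPKM in replicate 2.

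Regarding TEAD transcription factors, TEAD1 (ENSG00000187079, chromosome 11 of GRCh37, 12695968 to 12966284) stood at 24.8 and 24.1 FPKM in the controls and at 19.6 and 19.9 FPKM in the siKIF26B libraries. It was the factor gene below the controls to a like extent in both siKIF26B libraries, by −0.30 and −0.28 on the log2 scale. The group difference was −0.29 (standard error 0.11, 95% interval −0.59 to 0.01, adjusted p = 0.309, limma). A difference as low or lower was seen in 21.7% and 24.4% of the genes tested in these libraries, so its size was ordinary among all genes. From 3696 to 6107 reads, its rates relative to the controls were 0.805 (0.777 to 0.833) and 0.816 (0.786 to 0.847), intervals that overlap.

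TEAD2 (ENSG00000074219, chromosome 19 of GRCh37, 49843852 to 49865714) stood at 7.23 and 7.36 FPKM in the controls, 12.4 FPKM in siKIF26B replicate 1 and 6.24 FPKM in replicate 2. One siKIF26B library lay above both controls and the other below both, so the log2 difference of 0.25 (standard error 0.33, 95% interval −0.67 to 1.17, adjusted p = 0.733, limma) averages opposite values of 0.69 and −0.20. Of its exon bases, 319 (10.7%) are shared with exons of CD37 on the opposite strand. Strand use in counting and the handling of reads that overlap both genes are not stated. How reads on the shared bases were counted is therefore not known. CD37, which encodes a tetraspanin of leukocytes, read 4.25 and 4.45 FPKM in the controls and 7.83 and 5.07 FPKM in the siKIF26B libraries. Its part in the TEAD2 values was not tested.

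TEAD3 (ENSG00000007866, chromosome 6 of GRCh37, 35441374 to 35464856) stood at 12.1 and 12.5 FPKM in the controls and at 13.3 and 13.9 FPKM in the siKIF26B libraries. The groups did not overlap, and the log2 difference was 0.13 (standard error 0.11, 95% interval −0.18 to 0.44, adjusted p = 0.593, limma). TEAD4 (ENSG00000197905, chromosome 12 of GRCh37, 3068496 to 3149842) stood at 9.66 and 10.1 FPKM in the controls and at 10.1 and 9.67 FPKM in the siKIF26B libraries, the smallest difference among the tested factor genes. Its log2 difference was 0.00 (standard error 0.11, 95% interval −0.31 to 0.31, adjusted p = 0.998, limma). No overlap with exons of another gene of the tables was found for TEAD1, TEAD3 or TEAD4.

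**Figure D2:**
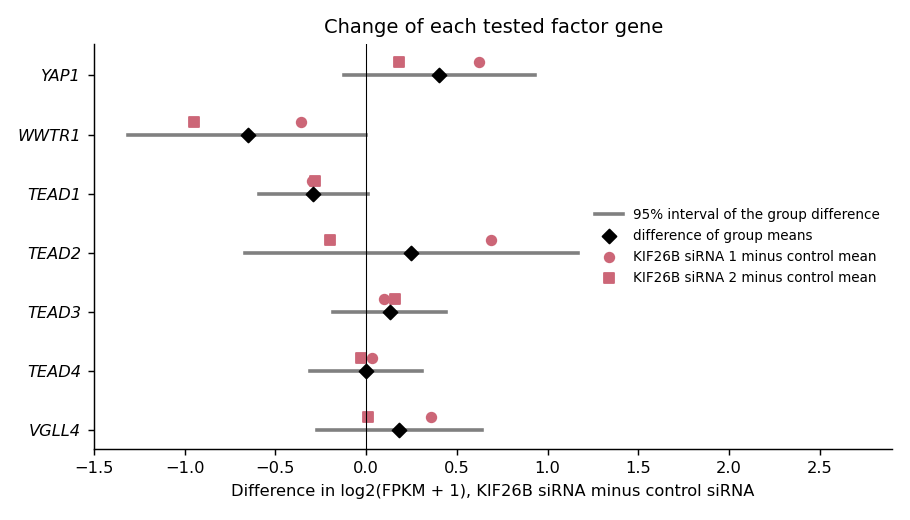
Difference in log2(FPKM + 1) between KIF26B siRNA and control siRNA libraries (horizontal axis) for the 7 tested factor genes. Diamonds are differences of group means and grey bars their 95% intervals from limma, and red circles and squares are KIF26B siRNA replicates 1 and 2 minus the control mean. Each interval reaches 0 or crosses it, the diamonds of WWTR1 at −0.65 and TEAD1 at −0.29 lie furthest to the left, and the replicates of TEAD2 fall on opposite sides of 0.

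TEAD levels summed over the paralogs differed little: 53.8 and 54.0 FPKM in the controls, 55.4 FPKM in replicate 1 and 49.7 FPKM in replicate 2. The make-up of this sum differed more. TEAD1 held 46.0% and 44.6% of it in the controls against 35.4% and 40.1% in the siKIF26B libraries, and was the leading paralog in each. TEAD2 held 13.4% and 13.6% in the controls, 22.4% in replicate 1 and 12.6% in replicate 2. The share of TEAD3 was 22.6% and 23.1% against 24.0% and 27.9%, and that of TEAD4 stayed between 18.0% and 19.5% in all libraries. The gap between the highest and the lowest paralog was 3.43-fold and 3.27-fold in the controls, 1.94-fold in replicate 1 and 3.19-fold in replicate 2. For each FPKM of YAP1 and WWTR1 together there were 1.60 FPKM of TEAD in either control, 1.33 in replicate 1 and 1.69 in replicate 2, on either side of the controls.

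Vestigial-like cofactors were the lowest group. VGLL4 (ENSG00000144560, chromosome 3 of GRCh37, 11597543 to 11812824), which competes with YAP for TEAD proteins, stood at 4.22 and 4.39 FPKM in the controls and at 5.80 and 4.34 FPKM in the siKIF26B libraries, from 567 to 897 reads. Replicate 1 was above both controls, replicate 2 lay between them, and the log2 difference was 0.18 (standard error 0.16, 95% interval −0.27 to 0.64, adjusted p = 0.612, limma). VGLL4 shares 1597 exon bases (22.2%) with ATG7, an autophagy gene on the opposite strand, which read 2.61 and 2.63 FPKM in the controls and 3.37 and 2.49 FPKM in the siKIF26B libraries, and the part of ATG7 in the VGLL4 values was not tested. Relative to the summed TEAD level, VGLL4 amounted to 0.0785 and 0.0812 in the controls and to 0.105 and 0.0873 in the siKIF26B libraries. VGLL1 (chromosome X of GRCh37, 135614374 to 135638966) had 0 reads in all 4 libraries, which allows up to 3 reads in each, or 0.0823 to 0.112 FPKM at its annotated exon length of 1478 bases.

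VGLL2 and VGLL3, which complete the VGLL family, were read beside the members. VGLL2 had 0 reads in every library. VGLL3 was low, and its groups did not overlap. It stood at 0.653 and 0.663 FPKM in the controls and at 0.0810 and 0.113 FPKM in the siKIF26B libraries. These values came from 163, 208, 22 and 26 reads. Lower values without overlap were also seen in 27.8% of the genes that passed the filter, which VGLL3 did not pass. Its read rate relative to both controls was 0.123 in replicate 1 (95% interval 0.0800 to 0.189) and 0.172 in replicate 2 (0.115 to 0.256), so that both libraries were low by a like factor within counting error. VGLL3 lies under the filter, and in the fit without it the log2 difference was −0.60 (standard error 0.06, adjusted p = 0.250, limma), on a scale that understates the change of genes below 1 FPKM. With limma-voom on recovered reads, also without the filter, it was −2.77 (standard error 0.37, adjusted p = 0.0511). With the replicate number as a block, the adjusted p was 0.496 (limma without the filter). VGLL4 exceeded VGLL3 by 6.47-fold and 6.61-fold in the controls and by 71.6-fold and 38.3-fold in the siKIF26B libraries.

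Genes with the pattern most like that of WWTR1 and YAP1, the tested members with the largest absolute log2 difference, were sought by the Euclidean distance of log2(FPKM + 1) minus the control mean over the 4 libraries. For WWTR1 these were GOLIM4 at a distance of 0.042 (8.42, 8.43, 6.25 and 4.0 FPKM), ENPP4 at 0.046 and ATPAF1 at 0.052. For YAP1 they were MRPL49 at 0.044 (18.0, 18.0, 27.8 and 21.1 FPKM), GAL3ST4 at 0.049 and SYNJ2BP at 0.054. With 4 libraries many genes lie close together by this measure, and the names are given as a description only.

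The rest of the pathway was read from lists chosen with earlier results of these data known, so their direction is not independent evidence. Hippo kinases, scaffolds and upstream regulators numbered 31 genes, all tested, with a median log2 difference of −0.23 against −0.01 for all genes tested. In 26 of them the difference was below 0, and 22 (71.0%) were lower in each siKIF26B library than in each control, beside 27.8% of all genes. Another 4 (12.9%) were higher without overlap, beside 24.9% of all genes, namely YWHAG and, named after their values were seen, MAP4K4, CSNK1E and AMOTL1. By unadjusted p from limma, 5 were lower and 1 higher, beside 8.68% and 7.74% of all genes, and after adjustment 0 were called. Past p and fold were 1 lower and 0 higher, beside 0.606% and 0.813% of all genes. AMOTL2, a junction scaffold that holds YAP and is itself a YAP target, was the gene past the fold threshold, with 20.1 and 21.2 FPKM in the controls and 7.63 and 9.06 FPKM in the siKIF26B libraries (log2 difference −1.21, standard error 0.14, adjusted p = 0.242, limma). SAV1, the scaffold of the MST kinases, read 18.8 and 20.0 against 13.0 and 11.3 FPKM, and WWC1 (KIBRA), an upstream activator of the kinases, 15.4 and 15.7 against 10.7 and 10.9 FPKM. YWHAG, a 14-3-3 protein of the family that retains phosphorylated YAP in the cytoplasm, was the gene that was higher by unadjusted p, at 71.7 and 73.0 against 108.0 and 97.6 FPKM.

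YAP and TAZ target genes numbered 22, of which 16 were tested, with a median log2 difference of −0.34. In 14 the difference was below 0, 12 (75.0%) were below both controls in both siKIF26B libraries, beside 27.8% of all genes, and 1 (6.25%) was above them, beside 24.9%. By unadjusted p, 6 were lower and 1 was higher, beside 8.68% and 7.74% of all genes, and 0 were called after adjustment. Past p and fold were 2 lower and 0 higher, beside 0.606% and 0.813% of all genes. CCN2, which encodes the matricellular protein CTGF, read 5.21 and 5.18 FPKM in the controls and 1.02 and 1.04 FPKM in the siKIF26B libraries (log2 difference −1.61, standard error 0.11, adjusted p = 0.242, limma). The other gene past the fold threshold was AMOTL2, which with LATS2 and PTPN14 stands in the Hippo list as well. ASAP1, an Arf GTPase-activating protein, read 13.4 and 13.9 against 7.42 and 8.17 FPKM, and NUAK2, a kinase, 2.75 and 3.02 against 1.41 and 1.79 FPKM. The gene on the higher side, named after its values were seen, was MYOF, which encodes the membrane protein myoferlin, at 55.3 and 55.5 against 99.3 and 78.3 FPKM.

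Nuclear partners of YAP, TAZ and TEAD, among them AP-1 and RUNX factors, SMADs and coactivators, numbered 26 genes with VGLL2 and VGLL3, and 21 were tested. Their median log2 difference was −0.25, with 18 genes below 0, and 14 (66.7% of those tested) were lower without overlap between the groups, beside 27.8% of all genes. Higher without overlap were 2 (9.52%), beside 24.9% of all genes, namely JUND and KLF5, named after their values were seen. Without siKIF26B replicate 2 the median was −0.08. By unadjusted p from limma, 4 were lower and 0 higher, beside 8.68% and 7.74% of all genes, and 0 were called after adjustment. RUNX1 read 7.80 and 7.81 FPKM in the controls and 4.19 and 4.84 FPKM in the siKIF26B libraries (log2 difference −0.68, standard error 0.12, adjusted p = 0.242, limma). FOSL2, an AP-1 subunit, read 26.1 and 25.4 against 18.6 and 16.5 FPKM, and SMAD3, a transcription factor of TGF-β signaling, 44 and 44.4 against 29.2 and 32.8 FPKM. TP73, a p53 family member that binds YAP, read 4.14 and 4.30 against 3.32 and 2.82 FPKM. The factor genes themselves lay on both sides of 0, from −0.65 for WWTR1 to 0.40 for YAP1, and no test of a difference from these lists was made.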

How the data were processed

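RNA sequencing was analysed in 4 libraries of HCT116 cells, 2 per group, with groups and replicate numbers from the sample labels. Per the methods and the submitters' processing notes, the authors purified poly(A) mRNA, aligned paired-end reads with HISAT2 (2.0.5) and counted with featureCounts (1.5.0-p3); the methods name hg19 and the notes hg38. The values the authors deposited are FPKM, a unit read from the values. Symbols and coordinates come from GENCODE of GRCh37, matched by gene ID (56513 of 58735 IDs), and promoters from RefSeq.

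Expression was compared with limma 3.58.1 in R 4.3.3 on log2(FPKM + 1), for genes averaging 1 FPKM or more, with no covariates and Benjamini–Hochberg adjustment over all 14523 genes. The fit had 2 residual degrees of freedom, and limma's moderation across genes added 2 prior ones. The p-values and intervals rest on both. Whole reads were recovered from the steps of the FPKM values (to within at most 0.02 of a whole number) for 34637 of 34638 genes above 0, at lengths within 5% of the annotated exon length where possible, and were used for counting intervals and limma-voom. The labels name no batch. The fitting function was run on simulated reads whose dispersion was the same in both groups. In the data the siKIF26B libraries of WWTR1 and YAP1 lay further apart than the controls, so the simulation checks the function only. Members and lists were chosen with earlier results of these data known. Named were the members, KIF26B, VGLL2, VGLL3, up to 4 genes per list past the thresholds or with the smallest p, and the nearest patterns; CD37, ATG7, WWTR1-AS1, MAP4K4, CSNK1E, AMOTL1, MYOF, JUND and KLF5 were named after their values were seen. Of the planned markers, PECAM1 was not analysed here. Alternatives tried were a replicate block, other filters, a pseudocount of 0.1, median-of-ratios scaling, a variance trend, limma-voom, and leaving out each library.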

Additional observations from a re-analysis of the deposited data

How the results depend on the processing

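Of the tested factor genes, YAP1, WWTR1, TEAD1, TEAD3 and VGLL4 kept their direction in all 11 alternatives each, from 0.18 to 0.62 for YAP1, −0.95 to −0.36 for WWTR1, −0.31 to −0.27 for TEAD1, 0.10 to 0.16 for TEAD3 and 0.01 to 0.36 for VGLL4. The groups of YAP1, WWTR1, TEAD1 and TEAD3 did not overlap, so leaving out a library could not reverse their direction. The replicate block, the other filters and the variance trend leave the difference of means unchanged. TEAD2 ranged from −0.20 to 0.69 with each library left out and was below 0 without KIF26B siRNA replicate 1. TEAD4, at 0.00, ranged from −0.03 to 0.03 and was at −0.00 under median-of-ratios scaling. Only WWTR1 passed an adjusted p of 0.05 under any of them, at −0.95 (0.0463, limma) without KIF26B siRNA replicate 1; there, 1 library is assumed to vary like the controls. With the replicate number as a block, the adjusted p was 0.415 for WWTR1 and 0.481 for YAP1, and no call by adjusted p changed, whereas the unadjusted p of WWTR1 by limma was 0.0404 against 0.0504; the deviations of same-numbered libraries were uncorrelated (r = −0.0031), and the labels do not say that a number marks a shared culture or day.

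Over all genes, 88 lower and 118 higher genes past p and fold became 98 and 135 with the replicate block, 52 and 69 with at least 1 FPKM in every library, 203 and 217 at a pseudocount of 0.1, 204 and 197 by limma-voom, and 123 to 223 and 156 to 334 with each library left out (lower 193 and higher 334 without KIF26B siRNA replicate 1, lower 223 without KIF26B siRNA replicate 2, lower 135 without control siRNA replicate 1). Genes with an adjusted p below 0.05 numbered 0 in each fit except the one without KIF26B siRNA replicate 1 (0 to 2507 with each library left out). The list medians stayed below 0: the Hippo median was −0.26 at a pseudocount of 0.1, −0.27 by limma-voom and −0.25 to −0.22 with each library left out, the target median was −0.27 without a filter and −0.48 to −0.35 with each library left out, and the partner median was −0.35 to −0.08 with each library left out. The causes of these moves were not tested. The tested members had 336 or more reads in each library and KIF26B 8 to 73, and the log2 difference of KIF26B was −0.52 at a pseudocount of 0.1.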
